A study of Homo sapiens with 9 samples.

Results

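The genes described here are 43 members of the actomyosin contractile system, out of 25593 loci in each expression table. They were taken by gene symbol from a fixed list, and all 43 symbols were found. The list, the classes and the other gene lists below were chosen with earlier results of these data known. The list holds 4 actins, 14 proteins that sit on or shape the thin filament, 8 myosin genes (subunits and the light chain kinase), 4 transcriptional regulators of contractile genes, and 13 crosslinking or adhesion proteins. By where they are best known to be expressed, 11 members are muscle-type, 13 are non-muscle and 19 are found in both or broadly.

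The 9 libraries are total RNA from neural crest-like progeny of H9, a human embryonic stem cell line, and form 3 groups of 3 biological replicates. In F_FSB, cells were grown for 4 passages with FGF2 and SB431542 and then for 3 passages with FGF2 alone. In FSB, both were present throughout expansion. SB431542 is a small molecule that inhibits type I receptors of TGF-β, Activin and Nodal. In F, cells were expanded with FGF2 alone. FGF2 was used at 5 to 10 ng/ml and SB431542 at 3 to 5 µM, in chemically defined medium on fibronectin under 5% oxygen, and RNA was taken at passage 6 to 7. All 3 groups had earlier been differentiated for 6 days with 10 µM SB431542, so none was free of the inhibitor throughout. The cells came from a single line and were sorted before expansion. The protocol gives the sorted cells as high for CD271 and lacking CD73, whereas the cell type label gives both markers as present. No library from the start of expansion was used, so words such as rose and fell compare groups.

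Values are FPKM, fragments scaled to transcript length and to each library's mapped fragments. They can be compared between genes, while comparisons between libraries also depend on how the libraries are scaled. All FPKM summed to 506146 in F_FSB replicate 2 and to between 361026 and 395596 in the other libraries. The tables hold no fragment counts, and a rough estimate put F_FSB replicate 2 at 58.7% of the greatest depth, with the other 8 libraries between 81.0% and 100%. It rests on the low values of only 1 to 8 intronless olfactory receptor genes per library, 2 in each F_FSB library, read in a range chosen after the values were seen. For 13 members the deposited FPKM lay outside the interval that Cufflinks gave beside it in at least 1 library. This was so in 8 or 9 libraries for ACTB, ACTG1, TAGLN2, CNN3, MYH9, TPM1, FLNA and CSRP2. Of 7 crest and ectomesenchyme markers, 6 averaged 1 FPKM or more in at least 1 group, while SOX10, a defining crest factor, averaged 0.00571 FPKM in F_FSB, 0.612 in FSB and 0.0178 in F. In these bulk libraries, fewer cells that express a gene and less RNA per cell cannot be told apart.

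Contractile force arises when myosin heads, switched on by phosphorylation of the regulatory light chain, pull on actin filaments. Tropomyosin, caldesmon and calponin lie along the filament, α-actinin and filamin crosslink it, and vinculin, talin and zyxin join it to adhesions. Every cell makes a non-muscle version of this apparatus, and smooth muscle adds its own actins, transgelin, calponin and myosin heavy chain. Many of these genes are targets of SRF, which binds a short DNA element named CArG together with MKL1 or MKL2, which sense free actin, or with myocardin in muscle. TGF-β is well known to induce smooth muscle genes in mesenchymal and crest-derived cells.

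The 4 actins are so alike that their measurement depends on reads being placed on the right gene, and the stretches below show how they differ at equivalent places. Each is 60 bases of coding sequence, from 300 to 241 bases before its end, in the GENCODE annotation lifted to GRCh37, and capitals mark bases that differ from ACTB.
ACTA2: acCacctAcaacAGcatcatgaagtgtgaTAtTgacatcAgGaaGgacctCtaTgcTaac
ACTG2: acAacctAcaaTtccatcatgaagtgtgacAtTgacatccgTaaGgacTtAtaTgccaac
ACTB: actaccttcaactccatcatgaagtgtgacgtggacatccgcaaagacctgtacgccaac
ACTG1: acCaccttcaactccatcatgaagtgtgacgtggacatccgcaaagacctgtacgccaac
In this stretch ACTA2 differed from ACTB at 13 bases, ACTG2 at 10 and ACTG1 at 1. Over the whole coding sequence, identity was 85.0% between ACTA2 and ACTG2, 82.2% between ACTA2 and ACTB and 91.2% between ACTB and ACTG1. Counted in windows of 75 bases over the canonical transcripts, none of the 4 shared a window with another of the 4. ACTB shared 3.74% of its windows with other loci. The closest of the pairs compared within the actin, transgelin, calponin, myosin and filamin families was MYL12A and MYL12B, with 95.7% coding identity, and each shared under 1% of its windows with the other.

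The promoters below are shown because SRF binding to CArG elements is the textbook control of this gene set. RefSeq promoters on GRCh38.p14, from 250 bases before to 50 after the transcription start, were found for 38 of the 43 members. None was found for ACTB, TAGLN, MYH11, MYL9 and MYOCD. A CArG element was present in 7 of the 38 (18.42%), against 454 of 35116 RefSeq promoters of the same length (1.29%). The element reads as a match on both strands. Parts of the 7 promoters follow, each written along its gene's strand, with the CArG elements in capitals.
ACTG2: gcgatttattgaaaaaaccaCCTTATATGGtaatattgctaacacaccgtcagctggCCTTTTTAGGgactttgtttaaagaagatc
SRF: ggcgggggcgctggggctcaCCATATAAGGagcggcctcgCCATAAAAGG
ACTG1: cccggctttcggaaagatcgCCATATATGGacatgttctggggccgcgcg
CNN2: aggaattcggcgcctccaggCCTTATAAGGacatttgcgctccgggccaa
MYLK: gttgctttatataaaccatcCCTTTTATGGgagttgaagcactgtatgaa
TPM4: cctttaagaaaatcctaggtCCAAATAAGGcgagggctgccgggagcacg
FLNA: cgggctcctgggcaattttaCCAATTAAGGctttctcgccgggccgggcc
These windows lie at chr2:73892878-73892964 (plus strand) for ACTG2, chr6:43171219-43171268 (plus) for SRF, chr17:81512864-81512913 (minus) for ACTG1 and chr19:1026499-1026548 (plus) for CNN2. Those of MYLK, TPM4 and FLNA lie at chr3:123620613-123620662 (minus), chr19:16067345-16067394 (plus) and chrX:154374699-154374748 (minus). ACTG2 and SRF each had 2 elements. Of the 7 genes, SRF, TPM4 and FLNA were higher in FSB than in F and ACTG2, ACTG1, CNN2 and MYLK did not pass the test. The calls of TPM4 and FLNA were lost with the median-ratio scaling described below. Whether the element goes with the differences was not tested. Only exact matches were searched, with CC, then letters A or T, then GG, as in the elements shown. No such match was found in the windows of LMOD1, CNN1, CSRP1, FLNC, TPM2 and ACTA2. Looser matches, other transcription starts and sites outside the windows were not searched, so these genes are not shown to lack the element.

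FSB cells had more RNA of much of the contractile set than F cells. Of the 40 members that could be tested, 20 were higher in FSB, 1 was lower and 19 did not pass, by limma on log2(FPKM + 1) at a Benjamini-Hochberg adjusted p under 0.05 over 13216 genes. Of all genes tested, 28.5% were higher in FSB and 13.4% lower. The median member differed by 0.59 on the log2 scale and the median gene by 0.14. After withdrawal of the inhibitor, 15 members were lower in F_FSB than in FSB and 2 were higher, where 28.2% of all genes were lower and 13.7% higher. The median member there differed by -0.35 and the median gene by -0.13. Both comparisons use the same FSB libraries, so they are not independent of each other. Between F_FSB and F, 0 of the 40 members passed, and of all genes 0% were higher and 0.00757% lower. TAGLN3 and MYOCD fell under the filter of 1 FPKM in 3 libraries, and LPP had a failed quantification in 2 FSB libraries.

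These counts depend on how libraries are scaled. With median-ratio scaling, which moves the median gene's difference between FSB and F to 0.00, 13 of 40 members were higher in FSB than in F, where 18.3% of all genes were higher. Under that scaling 8 of 40 were lower in F_FSB than in FSB, near the 19.1% of all genes. Over all genes, 68% of the calls between FSB and F were upward as deposited and 49.6% after that scaling. Between F_FSB and FSB, 32.7% were upward as deposited and 49.8% after it. The 2 rescalings used gave different counts. With quantile normalization, the median gene differed by 0.03 between FSB and F and by -0.03 between F_FSB and FSB. There 19 of 40 members were higher in FSB than in F, against 19.9% of all genes. In F_FSB, 13 of 40 were lower than in FSB, against 20.9% of all genes. All values below are as deposited, and the plot of each member's change marks the median gene.

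**Figure D1:**
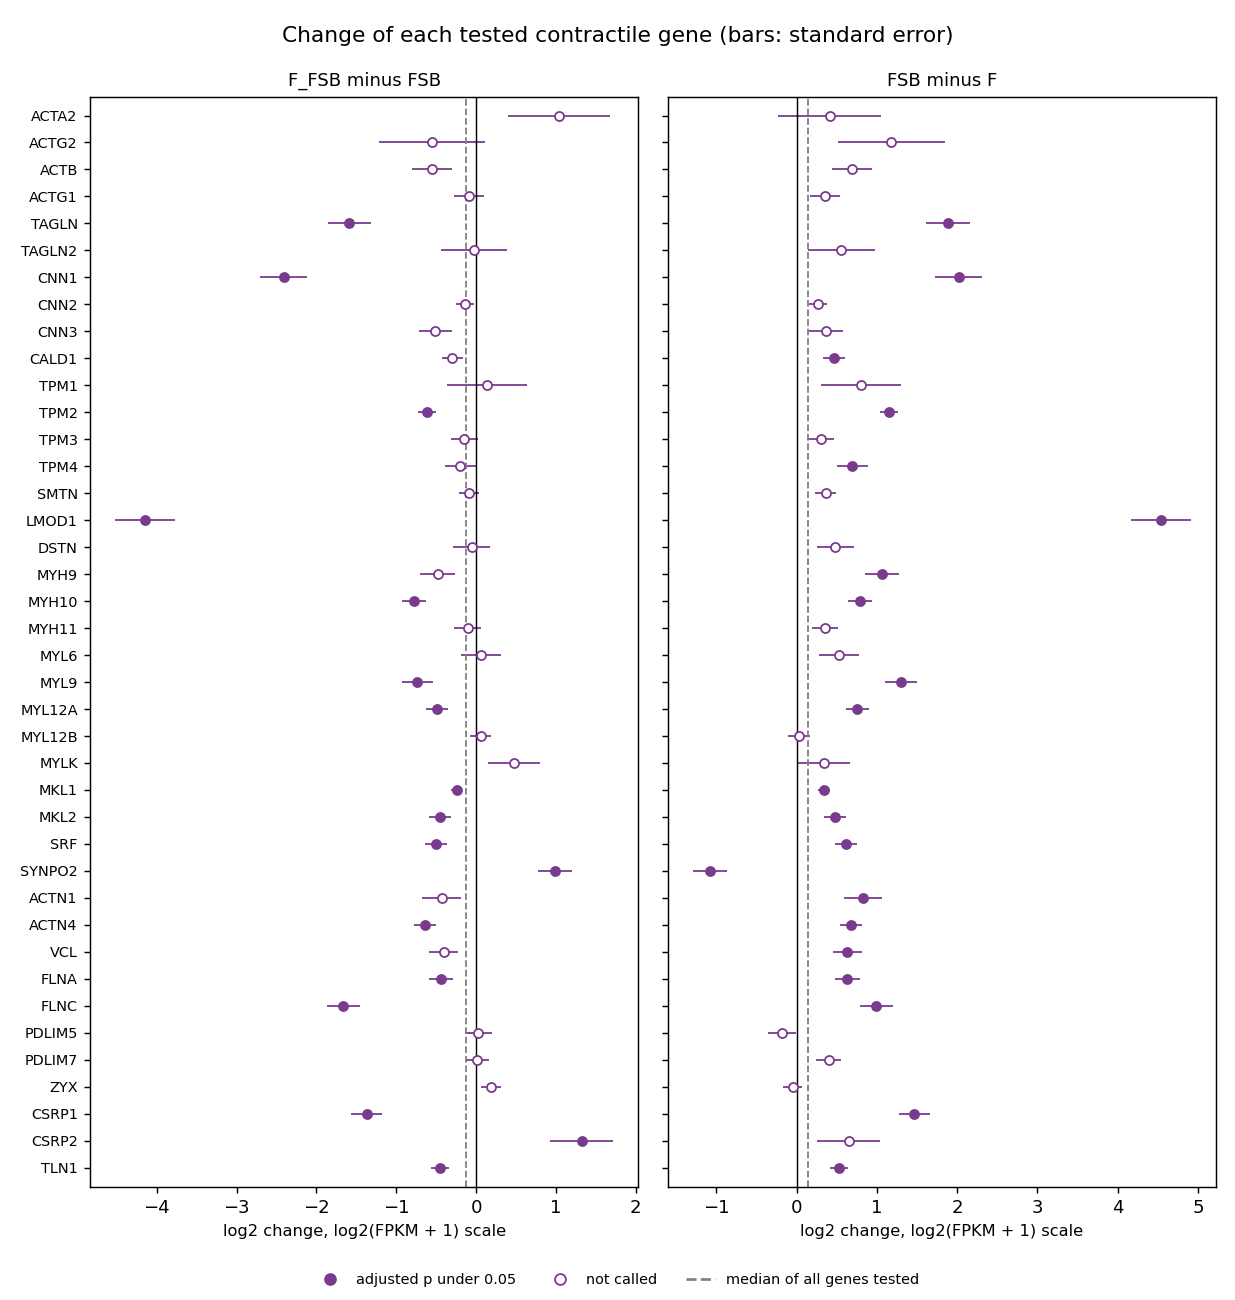
Log2 change of the 40 tested members between F_FSB and FSB (left) and between FSB and F (right), on the log2(FPKM + 1) scale with standard errors. Filled points passed the test, open points did not, and the dashed line is the median of all 13216 genes (-0.13 and 0.14). LMOD1, at -4.15 and 4.54, lies farthest from that line in both panels, and SYNPO2 and CSRP2 are the filled points on the opposite side at left.

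The actins as a group gave no calls in any comparison. ACTA2, smooth muscle α-actin (GRCh37 chr10:90694831-90751147), had 29.5, 123 and 208 FPKM in F_FSB, 34.6, 42.0 and 59.3 in FSB, and 25.9, 49.6 and 27.8 in F, in replicates 1 to 3. The spread lay mainly within F_FSB, where replicate 1 was at the level of the other groups and replicates 2 and 3 were above every other library. ACTA2 differed by 1.03 between F_FSB and FSB (SE 0.64, adjusted p = 0.227) and by 0.41 between FSB and F (adjusted p = 0.632). Without F_FSB replicate 1, the difference from FSB was 1.84 and passed (adjusted p = 0.00812). The ACTA2 locus overlaps FAS in the tables.

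ACTG2, the γ-actin of enteric smooth muscle, had 107, 48.0 and 31.3 FPKM in F_FSB, 110.5, 143 and 32.5 in FSB, and 45.0, 52.0 and 18.1 in F. All 3 groups overlapped, and replicate 3 was the lowest library of each group. FSB exceeded F by 1.18 (SE 0.67, adjusted p = 0.188), and by 1.82 without FSB replicate 3 (adjusted p = 0.0499). Together, ACTA2 and ACTG2 made up 3.64 ± 1.06% of the FPKM of the 4 actins in F_FSB, 2.15 ± 0.50% in FSB and 1.66 ± 0.55% in F (SD, n = 3 each). Most actin RNA was therefore of the non-muscle genes in every library.

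ACTB, non-muscle β-actin, averaged 2835 ± 581 FPKM in F_FSB, 4120 ± 556 in FSB and 2537 ± 161 in F (SD, n = 3 each). The FSB libraries lay above all the others, yet the difference of 0.69 from F just missed the threshold (adjusted p = 0.0531). It passed with only the FSB and F libraries in the fit (adjusted p = 0.0187), with quantile normalization (0.0358) and without F_FSB replicate 2 (0.0123). Between F_FSB and FSB it did not pass as deposited (-0.55, adjusted p = 0.106), but did with quantile normalization (-0.80, 0.027). ACTG1, non-muscle γ-actin, averaged 2048 ± 230 FPKM in F_FSB, 2174 ± 149 in FSB and 1707 ± 204 in F, with a difference of 0.35 between FSB and F (adjusted p = 0.171).

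**Figure D2:**
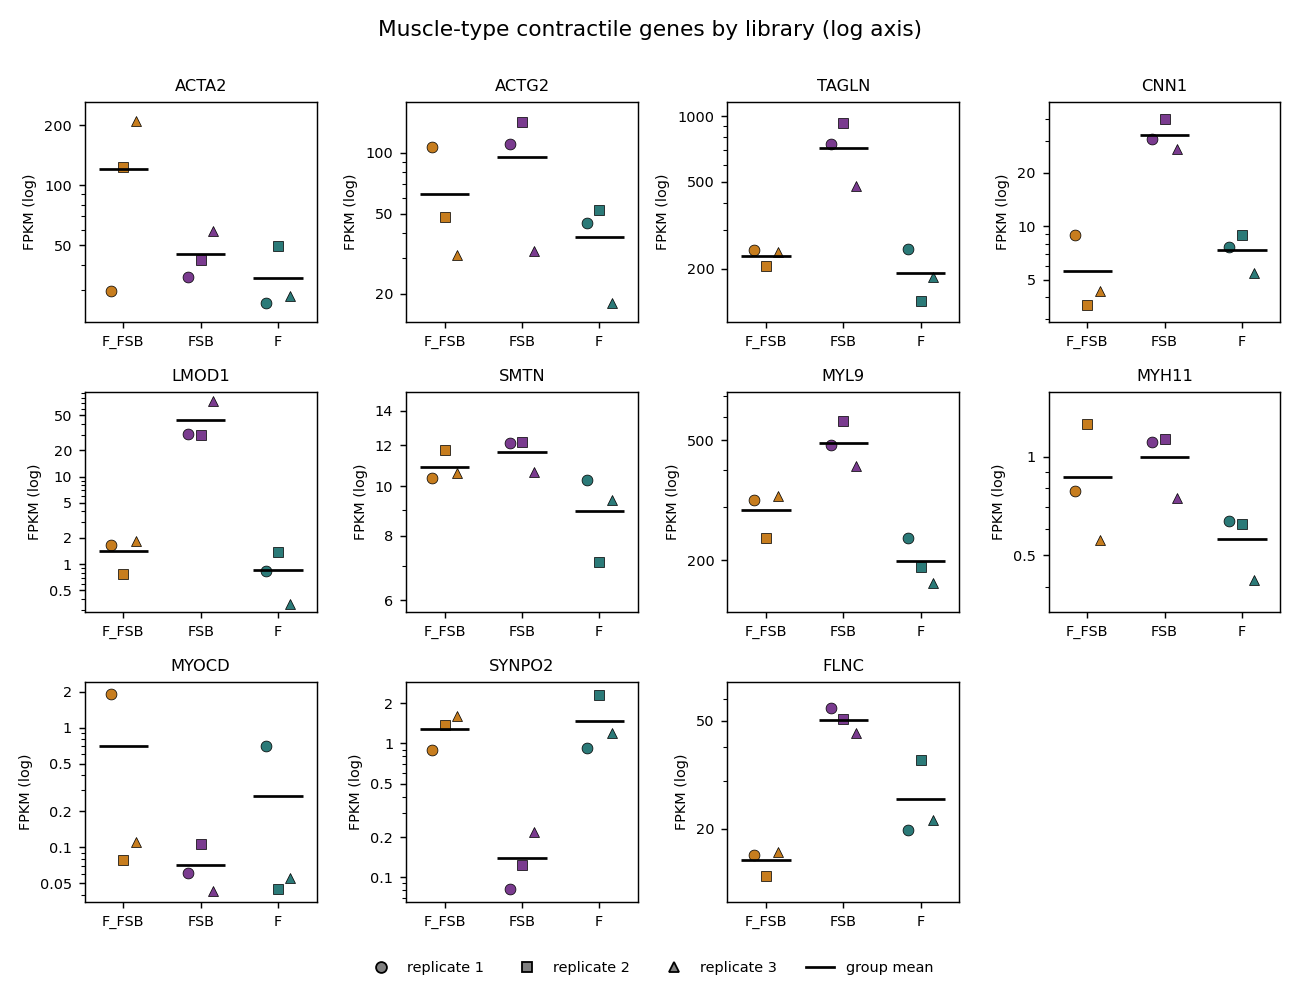
FPKM of the 11 muscle-type members in each library, on log axes, with F_FSB, FSB and F from left to right and the group mean as a line. TAGLN, CNN1, LMOD1, MYL9 and FLNC are highest in the 3 FSB libraries, SYNPO2 is lowest there (0.0816 to 0.217 FPKM), and ACTA2, ACTG2 and MYOCD spread within groups.

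Among thin filament proteins, 6 of 13 tested members rose in FSB against F, none fell, and 4 were lower in F_FSB than in FSB. Of all genes, 28.5% were higher in FSB than in F and 28.2% lower in F_FSB than in FSB. The count of 4 of 13 was near that last share. LMOD1, leiomodin 1, which seeds actin filaments in smooth muscle (GRCh37 chr1:201865584-201915716), gave the largest differences of any member. It had 1.64, 0.774 and 1.82 FPKM in F_FSB, 30.4, 30.1 and 73.9 in FSB, and 0.836, 1.36 and 0.354 in F. No FSB library overlapped another group, and FSB replicate 3 was above the other 2. LMOD1 differed by 4.54 between FSB and F (SE 0.37, adjusted p = 0.000162) and by -4.15 between F_FSB and FSB (SE 0.37, adjusted p = 0.000236). The group means were 44.8 FPKM in FSB and 0.850 FPKM in F, a ratio of 52.7. The FPKM of FSB replicate 3 lay just outside its Cufflinks interval of 68.6 to 73.8.

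CNN1, calponin 1, a smooth muscle inhibitor of myosin ATPase (GRCh37 chr19:11649579-11661138), had 8.94, 3.62 and 4.35 FPKM in F_FSB, 31.0, 40.0 and 27.2 in FSB, and 7.66, 8.90 and 5.48 in F. FSB stood clear of both other groups, which overlapped each other. CNN1 rose by 2.02 in FSB against F (SE 0.30, adjusted p = 0.00156) and differed by -2.41 between F_FSB and FSB (SE 0.30, adjusted p = 0.000774). The other calponins moved less. CNN2 averaged 147.6 ± 7.21 FPKM in F_FSB, 162.7 ± 9.51 in FSB and 135.7 ± 17.0 in F (SD, n = 3 each). CNN3 averaged 175 ± 22.6 FPKM in F_FSB, 249 ± 27.8 in FSB and 198 ± 61.6 in F. Neither passed in any comparison, although CNN2 passed between FSB and F without F replicate 1 (adjusted p = 0.0278) and CNN3 without F replicate 3 (0.0196). CNN3 also passed between F_FSB and FSB without F replicate 3 (-0.51, adjusted p = 0.0209) and with only those 2 groups in the fit (0.0338).

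TAGLN, transgelin or SM22α, an early smooth muscle marker that binds actin (GRCh37 chr11:117070040-117075508), had 244, 207 and 239 FPKM in F_FSB, 747, 927 and 478 in FSB, and 246, 143 and 185 in F. Every FSB library was above every library of the other groups. TAGLN rose by 1.89 in FSB against F (SE 0.27, adjusted p = 0.00139) and differed by -1.59 between F_FSB and FSB (SE 0.27, adjusted p = 0.00270). In the annotation used for the windows, TAGLN shared 65.28% of them with an unnamed locus that overlaps the 3′ end of its canonical transcript, beyond the end of TAGLN in the tables. TAGLN2, the broadly expressed relative, averaged 106 ± 24.0 FPKM in F_FSB, 118 ± 57.2 in FSB and 73.8 ± 20.6 in F. It did not pass, except between FSB and F without FSB replicate 3 (1.04, adjusted p = 0.0294). TAGLN3, a neuronal relative, was at 0.507 FPKM or less in all 9 libraries.

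Of the tropomyosins, TPM2 changed with the least spread. TPM2 had 259, 293 and 284 FPKM in F_FSB, 437, 447 and 399 in FSB, and 216, 183 and 178 in F. The 3 groups did not overlap, with F_FSB between the others. The difference was 1.15 between FSB and F (SE 0.11, adjusted p = 0.000326), -0.62 between F_FSB and FSB (SE 0.11, adjusted p = 0.00385) and 0.54 between F_FSB and F (SE 0.11, adjusted p = 0.369, unadjusted p = 0.00142). TPM4, a tropomyosin of non-muscle filaments, rose by 0.70 in FSB against F (adjusted p = 0.0226), a call lost with median-ratio scaling and on leaving out F replicate 2 or 3 or FSB replicate 1 or 2 (adjusted p 0.0572 to 0.0798). TPM4 shares 10.0% of its windows with pseudogenes. TPM1 averaged 690 ± 303 FPKM in F_FSB, 594 ± 49.4 in FSB and 410 ± 315 in F. Its highest libraries were F_FSB replicate 1, at 1036 FPKM, and F replicate 1, at 770 FPKM. TPM1 did not pass, but differed by 1.39 between FSB and F without F replicate 1 (adjusted p = 0.0182). TPM3 averaged 145 ± 32.1 FPKM in F_FSB, 159 ± 20.0 in FSB and 128 ± 12.4 in F and did not pass.

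CALD1, caldesmon, averaged 195 ± 10.6 FPKM in F_FSB, 240.3 ± 7.25 in FSB and 175 ± 32.2 in F, and its rise of 0.47 in FSB against F (adjusted p = 0.0243) was lost under 7 alternatives (0.0543 to 0.0956). These left out F replicate 2 or 3 or any FSB replicate, or rescaled the libraries. SMTN, smoothelin, a filament protein of contractile smooth muscle, averaged 10.9 ± 0.753 FPKM in F_FSB, 11.7 ± 0.862 in FSB and 8.93 ± 1.64 in F. It missed the threshold between FSB and F (0.36, adjusted p = 0.0517) and passed without F replicate 1 (0.0293). DSTN, destrin, an actin-depolymerizing protein, averaged 257 ± 52.2 FPKM in F_FSB, 266 ± 46.1 in FSB and 192 ± 44.5 in F and did not pass.

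Among the myosin genes, 4 of 8 rose in FSB against F and 3 were lower in F_FSB than in FSB, against 28.5% and 28.2% of all genes. MYL9, the regulatory light chain of smooth muscle myosin (GRCh37 chr20:35169897-35178226), had 318, 237 and 327 FPKM in F_FSB, 481, 579 and 411 in FSB, and 237, 190.1 and 168 in F. FSB did not overlap the other groups. MYL9 rose by 1.30 in FSB against F (SE 0.19, adjusted p = 0.00163) and differed by -0.74 between F_FSB and FSB (SE 0.19, adjusted p = 0.0171). The second call was lost without FSB replicate 2 (adjusted p = 0.0630) and with median-ratio scaling (0.0564). MYL12A, a non-muscle regulatory light chain, averaged 189 ± 14.5 FPKM in F_FSB, 267 ± 33.4 in FSB and 157 ± 21.6 in F. It rose by 0.76 in FSB (adjusted p = 0.00387) and differed by -0.49 in F_FSB against FSB (adjusted p = 0.0225), a call lost, among other settings, without FSB replicate 2 or 3, without F_FSB replicate 3 and with median-ratio scaling (0.0643 to 0.0801). Its neighbour and near copy MYL12B averaged 179 ± 13.4 FPKM in F_FSB, 173 ± 22.1 in FSB and 169 ± 21.6 in F. The MYL12B difference between FSB and F was 0.03 (adjusted p = 0.871).

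MYH9, the heavy chain of non-muscle myosin IIA, had 258, 254 and 175 FPKM in F_FSB, 359, 340.0 and 257 in FSB, and 178, 158 and 120.3 in F. FSB lay above F without overlap, while the highest F_FSB library slightly exceeded the lowest FSB library. MYH9 rose by 1.06 in FSB against F (SE 0.22, adjusted p = 0.00595) and did not pass between F_FSB and FSB (-0.48, adjusted p = 0.106). MYH10, the heavy chain of non-muscle myosin IIB, averaged 96.0 ± 19.0 FPKM in F_FSB, 163 ± 14.8 in FSB and 94.2 ± 9.26 in F. It rose by 0.79 in FSB against F (adjusted p = 0.00434) and differed by -0.77 between F_FSB and FSB (adjusted p = 0.00444). MYH11, the smooth muscle heavy chain and the most specific marker of that lineage in the list (GRCh37 chr16:15796992-15950887), had 0.786, 1.26 and 0.557 FPKM in F_FSB, 1.11, 1.13 and 0.749 in FSB, and 0.636, 0.623 and 0.420 in F. The F libraries were below the FSB libraries but the difference of 0.35 did not pass (adjusted p = 0.122). MYH11 overlaps NDE1 in the tables.

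MYL6, the essential light chain, averaged 867 ± 261 FPKM in F_FSB, 812 ± 123 in FSB and 565 ± 116 in F and did not pass, except between FSB and F with quantile normalization (adjusted p = 0.0455) and without F_FSB replicate 2 (0.0483). MYLK, the kinase that switches on the regulatory light chain, averaged 8.99 ± 0.748 FPKM in F_FSB, 6.44 ± 2.56 in FSB and 5.01 ± 2.37 in F. It differed by 0.34 between FSB and F (adjusted p = 0.431) and by 0.47 between F_FSB and FSB (adjusted p = 0.275).

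All 3 regulators that could be tested rose in FSB against F and were lower in F_FSB than in FSB, by small amounts. Among all genes, 28.5% rose in the first comparison and 28.2% were lower in the second. SRF, which binds the CArG elements shown above, averaged 14.6 ± 2.00 FPKM in F_FSB, 21.1 ± 0.529 in FSB and 13.5 ± 2.44 in F (SD, n = 3 each). It rose by 0.62 in FSB against F (adjusted p = 0.00871) and differed by -0.50 between F_FSB and FSB (adjusted p = 0.0194). MKL1 averaged 10.1 ± 0.367 FPKM in F_FSB, 12.1 ± 0.554 in FSB and 9.31 ± 0.465 in F, with differences of 0.34 (adjusted p = 0.00667) and -0.24 (0.0266). MKL2 averaged 6.42 ± 0.946 FPKM in F_FSB, 9.13 ± 0.671 in FSB and 6.29 ± 1.06 in F, with differences of 0.48 (adjusted p = 0.0228) and -0.46 (0.0282). Measured from the median gene, MKL1 differed by 0.21 between FSB and F and by -0.11 between F_FSB and FSB. Both MKL calls in both comparisons, and the SRF call between F_FSB and FSB, were lost with median-ratio scaling and with quantile normalization (adjusted p 0.0544 to 0.300). Between F_FSB and FSB, single libraries also ended the calls of MKL1 (any FSB replicate, or F_FSB replicate 1 or 3), MKL2 (FSB replicate 1 or 3, or F_FSB replicate 3) and SRF (any FSB replicate, or F_FSB replicate 3), with adjusted p 0.0519 to 0.0822. Between FSB and F, the MKL2 call was lost on dropping F replicate 2, F replicate 3, FSB replicate 1 or FSB replicate 3 (0.0600 to 0.0722).

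Myocardin, MYOCD, the muscle-restricted partner of SRF, was at 1.92, 0.0792 and 0.110 FPKM in F_FSB, 0.0616, 0.107 and 0.0436 in FSB, and 0.709, 0.0448 and 0.0556 in F. It was too low for the test, and replicate 1 of F_FSB and of F stood above the other 7 libraries. The FSB libraries were at 0.107 FPKM or less, like replicates 2 and 3 of F_FSB and F (0.0448 to 0.110 FPKM).

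**Figure D3:**
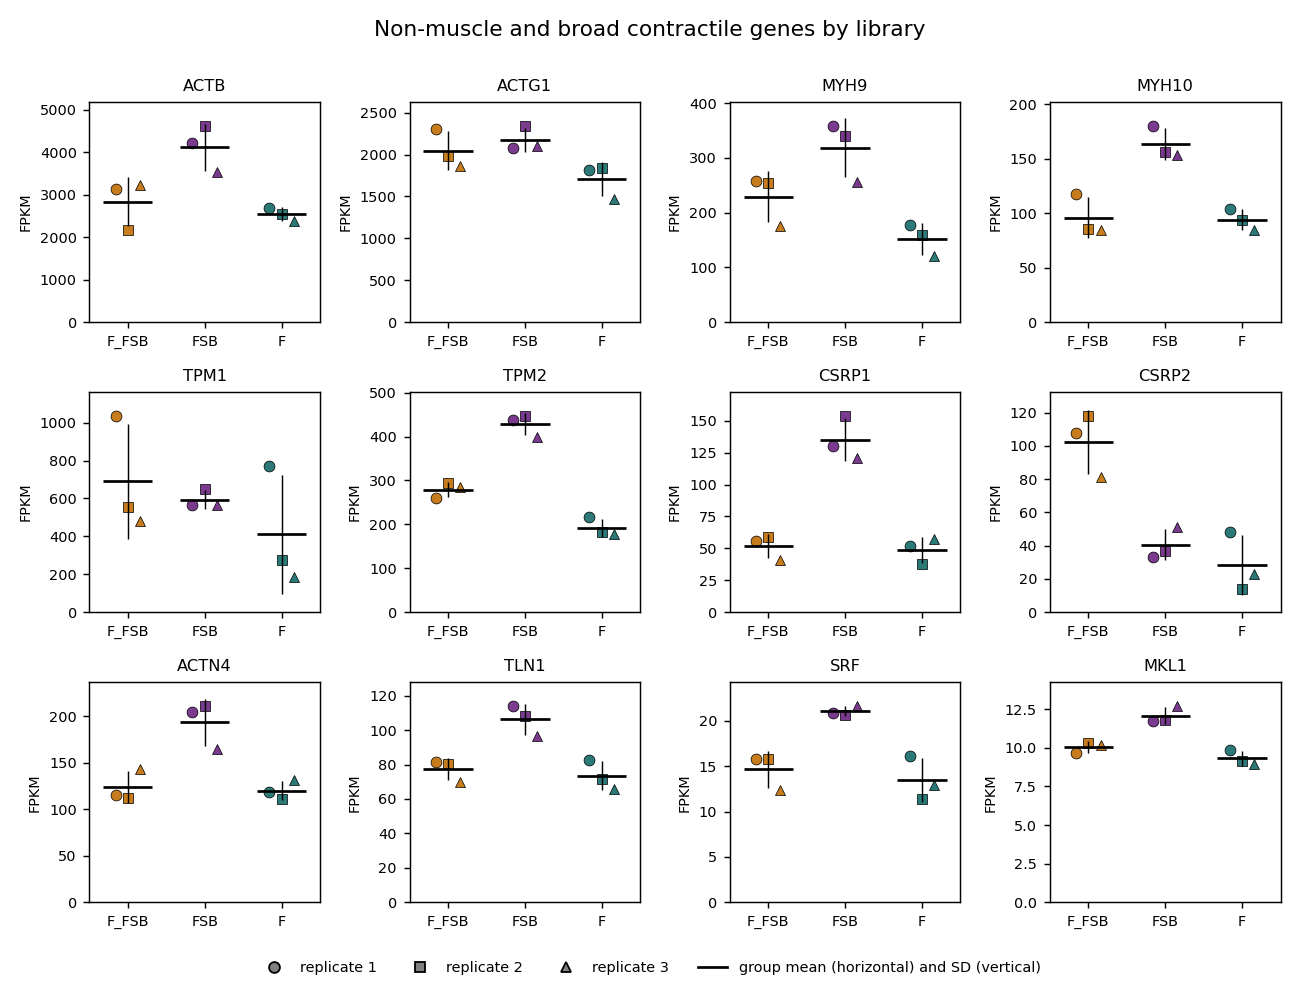
FPKM of 12 non-muscle or broadly expressed members in each library, with the mean and SD of each group and F_FSB, FSB and F from left to right. CSRP1, TPM2, MYH10 and TLN1 are highest in the 3 FSB libraries, CSRP2 is highest in F_FSB (81.2 to 118 FPKM), and TPM1 is highest in replicate 1 of F_FSB and of F.

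Of 12 tested crosslinking and adhesion members, 7 rose in FSB against F and 1 fell, and 5 were lower and 2 higher in F_FSB than in FSB. Among all genes, 28.5% rose and 13.4% fell in FSB against F. In F_FSB, 28.2% were lower and 13.7% higher than in FSB. FLNC, the muscle filamin (GRCh37 chr7:128470483-128499328), had 15.9, 13.4 and 16.4 FPKM in F_FSB, 55.5, 50.9 and 45.1 in FSB, and 19.8, 35.7 and 21.5 in F. No groups overlapped, and F_FSB was lowest. FLNC rose by 0.99 in FSB against F (SE 0.21, adjusted p = 0.00670), differed by -1.66 between F_FSB and FSB (SE 0.21, adjusted p = 0.000794) and by -0.67 between F_FSB and F (SE 0.21, adjusted p = 0.501, unadjusted p = 0.0114). FLNA, the broadly expressed filamin, averaged 301 ± 41.5 FPKM in F_FSB, 410 ± 56.5 in FSB and 263 ± 20.4 in F. It rose by 0.63 in FSB against F (adjusted p = 0.0122) and differed by -0.44 between F_FSB and FSB (adjusted p = 0.0464). The second FLNA call was lost under 12 of 15 alternatives (adjusted p 0.0537 to 0.211), among them the loss of any single library except FSB replicate 3, and the first with median-ratio scaling (0.0559).

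CSRP1 and CSRP2 are LIM-domain proteins of the actin cytoskeleton, both known in smooth muscle. They moved in opposite directions between F_FSB and FSB. Between FSB and F both differences were positive, but that of CSRP2 did not pass (0.65, adjusted p = 0.218). CSRP1 had 56.0, 58.7 and 41.1 FPKM in F_FSB, 130.4, 154 and 121 in FSB, and 51.5, 37.4 and 57.6 in F. FSB was clear of the other groups, which overlapped. CSRP1 rose by 1.47 in FSB against F (SE 0.19, adjusted p = 0.00101) and differed by -1.37 between F_FSB and FSB (SE 0.19, adjusted p = 0.00126). CSRP2 had 108, 118 and 81.2 FPKM in F_FSB, 33.4, 37.0 and 51.2 in FSB, and 48.5, 14.0 and 22.8 in F. The F_FSB libraries were above all the others, and FSB and F overlapped. CSRP2 was higher in F_FSB than in FSB by 1.32 (SE 0.39, adjusted p = 0.0281), and exceeded F by 1.97 (SE 0.39, adjusted p = 0.350, unadjusted p = 0.00100). The CSRP2 call against FSB was lost without FSB replicate 1 or 2 or F_FSB replicate 1 or 2 (adjusted p 0.0695 to 0.0899). Without F replicate 1, CSRP2 was higher in F_FSB than in F by 2.44 (adjusted p = 0.0238) and in FSB than in F by 1.11 (0.0173).

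SYNPO2, a muscle actin-bundling protein also named myopodin, was the only tested member to fall in FSB against F. It had 0.885, 1.37 and 1.59 FPKM in F_FSB, 0.0816, 0.124 and 0.217 in FSB, and 0.920, 2.29 and 1.20 in F. FSB did not overlap the other groups. The differences were -1.08 between FSB and F (SE 0.21, adjusted p = 0.00556) and 0.99 between F_FSB and FSB (SE 0.21, adjusted p = 0.00756), at levels where the added 1 FPKM shrinks a change on this scale. The ratio of group means was 0.0956 for FSB over F.

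Of the other crosslinkers, ACTN4, α-actinin 4, averaged 124 ± 17.3 FPKM in F_FSB, 193 ± 25.3 in FSB and 120.1 ± 10.5 in F. It rose by 0.68 in FSB against F (adjusted p = 0.00652) and differed by -0.64 between F_FSB and FSB (adjusted p = 0.00781). ACTN1, α-actinin 1, rose by 0.83 in FSB against F (adjusted p = 0.0260) and averaged 150.4 ± 18.9 FPKM in F_FSB, 205 ± 38.7 in FSB and 117 ± 36.0 in F. TLN1, talin 1, which activates integrins, rose by 0.53 in FSB against F (adjusted p = 0.00759) and differed by -0.45 between F_FSB and FSB (adjusted p = 0.0138). VCL, vinculin, rose by 0.63 in FSB against F (adjusted p = 0.0245) and averaged 158 ± 39.1 FPKM in F_FSB, 206 ± 4.78 in FSB and 133 ± 19.9 in F. The ACTN1 call was lost under 5 alternatives (adjusted p 0.0571 to 0.0880), and the VCL call under 7 (0.0518 to 0.0942), including the loss of F replicate 2 or 3 or of FSB replicate 1 or 2 in each case. For VCL, leaving out FSB replicate 3 also ended it. VCL did not pass between F_FSB and FSB with all libraries (-0.41, adjusted p = 0.107), but did without F_FSB replicate 3 (-0.59, 0.0205). The TLN1 call between F_FSB and FSB was lost without FSB replicate 1 (0.0521) and with median-ratio scaling (0.0743).

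The LIM proteins PDLIM5, PDLIM7 and ZYX (zyxin, found at adhesions under tension) passed in no comparison. ZYX averaged 175 ± 24.9 FPKM in F_FSB, 153 ± 9.70 in FSB and 159 ± 11.1 in F. PDLIM5 averaged 24.0 ± 5.75 FPKM in F_FSB, 23.0 ± 0.482 in FSB and 26.4 ± 3.46 in F. PDLIM7 averaged 144 ± 14.5 FPKM in F_FSB, 142 ± 4.30 in FSB and 109 ± 22.5 in F, and passed between FSB and F without F replicate 1 (adjusted p = 0.0274). LPP, another adhesion LIM protein, was at 13.7, 16.3 and 11.1 FPKM in F_FSB, 20.8 in FSB replicate 1, and 13.7, 10.6 and 12.7 in F. It was listed at 0 with a failed status in FSB replicates 2 and 3, so no fold is given.

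Muscle-type and non-muscle members moved in overlapping measure. Between FSB and F, 5 of 10 tested muscle-type members rose and 1 fell (median 1.09), 6 of 12 non-muscle members rose (median 0.65) and 9 of 18 broad members rose (median 0.51). Between F_FSB and FSB, 5 muscle-type members were lower and 1 higher (median -0.64), 4 non-muscle members were lower (median -0.46), and 6 broad members were lower and 1 higher (median -0.17). For comparison, 28.5% of all genes were higher and 13.4% lower in FSB than in F (median 0.14). In F_FSB, 28.2% of all genes were lower and 13.7% higher than in FSB (median -0.13). The counts of 4 of 12 non-muscle and 6 of 18 broad members lower in F_FSB were near that 28.2%. The broad median there was also near that of all genes. Differences between these classes were not tested.

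Within families, the muscle-type share can be read directly as a percent of family FPKM. CNN1 made up 1.74 ± 0.948% of calponin FPKM in F_FSB, 7.32 ± 0.968% in FSB and 2.23 ± 0.791% in F (SD, n = 3 each). TAGLN made up 68.5 ± 5.89% of the transgelins in F_FSB, 86.5 ± 2.95% in FSB and 71.7 ± 7.82% in F. For these 2 families the FSB libraries did not overlap the others. FLNC made up 4.84 ± 0.155% of FLNC and FLNA in F_FSB, 11.0 ± 0.507% in FSB and 8.94 ± 3.16% in F, with 1 F library, at 12.5%, above all FSB libraries. MYL9 made up 44.3 ± 5.86% of the regulatory light chains in F_FSB, 52.6 ± 4.40% in FSB and 37.7 ± 3.33% in F. MYH11 was 0.264 ± 0.0913% of the heavy chains in F_FSB, 0.205 ± 0.0224% in FSB and 0.225 ± 0.0211% in F, overlapping in all groups. ACTA2 as a percent of ACTA2 plus ACTG2 was 21.5, 72.0 and 87.0% in F_FSB, 23.9, 22.7 and 64.6% in FSB, and 36.5, 48.8 and 60.6% in F. Which smooth muscle actin prevailed thus varied among the libraries within each group. These shares are descriptions with no test.

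**Figure D4:**
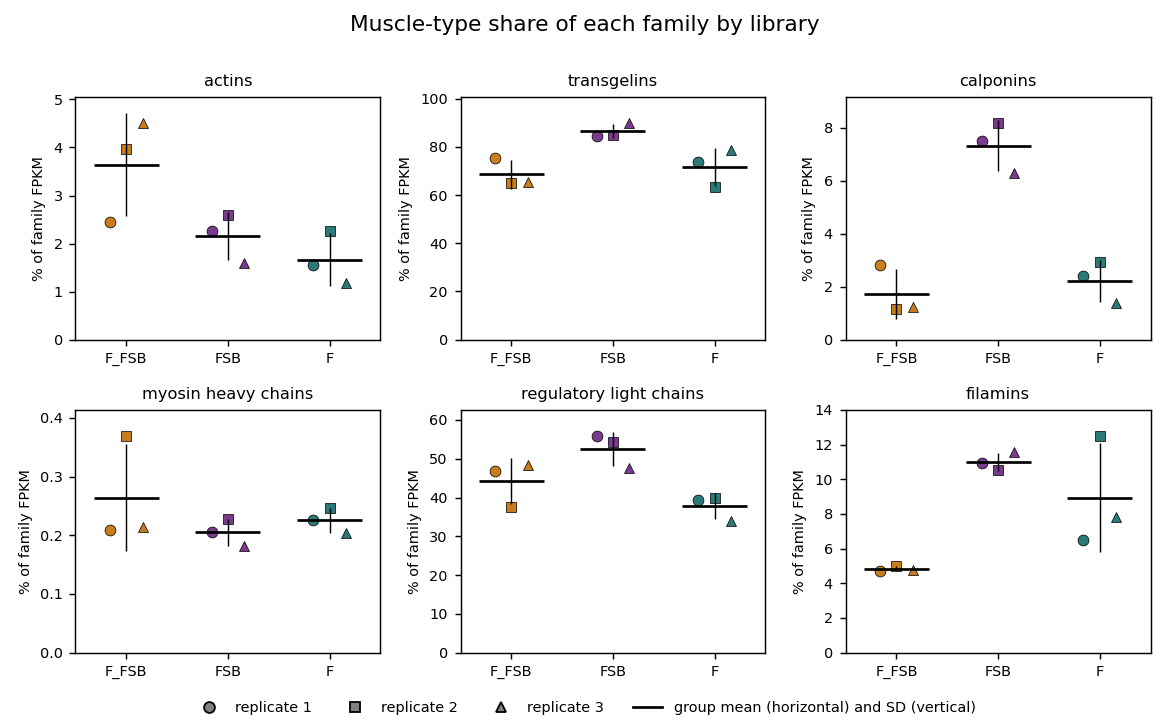
Muscle-type share of each family (percent of the family's FPKM) in each library, with the mean and SD of each group and F_FSB, FSB and F from left to right. Calponins (7.32% in FSB) and transgelins (86.5% in FSB) stand apart in the 3 FSB libraries, and the actins and myosin heavy chains overlap between groups.

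Between F_FSB and F, no member passed the adjusted threshold by limma, and 9 of 40 were under 0.05 before adjustment, against 1195 of 13216 genes. The median member differed by 0.24 and the median gene by 0.00. The smallest unadjusted p belonged to CSRP2 and TPM2, given above. ACTA2 differed by 1.45 (SE 0.64, adjusted p = 0.560), with F_FSB replicate 1 inside the range of F.

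Other genes of the same machinery are read against all genes tested, of which 28.5% were higher and 13.4% lower in FSB than in F, and 28.2% lower and 13.7% higher in F_FSB than in FSB. Of 22 genes of myosin light chain phosphorylation, 8 rose and 1 fell in FSB against F, and 8 were lower and 2 higher in F_FSB than in FSB. The list's medians were 0.24 and -0.12, against 0.14 and -0.13 for all genes. The gene that fell was PRKG1, the cGMP-dependent kinase that relaxes smooth muscle. It averaged 4.17 ± 2.25 FPKM in F_FSB, 0.659 ± 0.147 in FSB and 9.38 ± 3.34 in F. PRKG1 fell by 2.60 in FSB against F (adjusted p = 0.000758) and was 1.56 higher in F_FSB than in FSB (0.00584). PPP1R14A, or CPI-17, a smooth muscle inhibitor of myosin phosphatase, was chosen after its values were seen. It averaged 14.3 ± 7.36 FPKM in F_FSB, 24.2 ± 5.54 in FSB and 2.88 ± 1.36 in F, rose by 2.75 in FSB against F (adjusted p = 0.00124) and did not pass between F_FSB and FSB (-0.80, 0.127).

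Of 16 tested SRF and MKL targets outside the list, 3 rose and 2 fell in FSB against F, and 3 were higher and 2 lower in F_FSB than in FSB. These counts were not above the shares of all genes for genes higher in FSB or lower in F_FSB, and the medians were 0.38 and 0.06. ITGA1, a collagen-binding integrin subunit, rose by 4.21 in FSB against F (adjusted p = 0.000243) and PDLIM1 by 2.32 (0.00124), while SVIL, supervillin, fell by 2.15 (0.000559). Between F_FSB and FSB, SVIL differed by 1.78 (adjusted p = 0.00115), PDLIM1 by -1.99 (0.00223) and ITGA1 by -2.17 (0.00337). The immediate SRF targets EGR1 and FOS, chosen after their values were seen, averaged 4.50 and 0.706 FPKM in F_FSB, 7.80 and 0.523 in FSB, and 5.25 and 0.886 in F. EGR1 did not pass, and FOS was under the filter.

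Of 20 actin turnover genes, 9 rose and 1 fell in FSB against F, and 5 were lower in F_FSB than in FSB (medians 0.37 and -0.17). CAPZB, a capping protein, rose by 0.56 (adjusted p = 0.00262), DIAPH3, a formin, by 1.10 (0.00285), and WDR1, a cofilin partner, by 0.59 (0.00655). DIAPH3, DIAPH1 and CAPZB differed by -1.21 (adjusted p = 0.00175), -0.68 (0.00376) and -0.49 (0.00417) between F_FSB and FSB. Of 15 focal adhesion genes, 5 rose in FSB against F and 4 were lower in F_FSB than in FSB, near the shares of all genes (medians 0.17 and 0.01). The scaffold BCAR1 rose by 1.48 (adjusted p = 5.06e-05), the filament-elongating protein VASP by 1.70 (9.38e-05) and ILK by 0.78 (0.00309). BCAR1, VASP and the focal adhesion kinase PTK2 differed by -1.21 (adjusted p = 0.00014), -1.44 (0.000185) and -0.54 (0.0034) between F_FSB and FSB.

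Markers of cells that share contractile genes were read beside these results. Of 18 skeletal and cardiac muscle markers, 7 averaged 1 FPKM or more in at least 1 group, and their summed level was 7.71 to 36.3 FPKM in F_FSB, 30.2 to 39.7 in FSB and 18.7 to 28.0 in F. MYOG and MYF5, which define skeletal muscle, were listed at 0 in all 9 libraries. ACTC1, cardiac actin, averaged 0.405 FPKM in F_FSB, 5.30 in FSB and 0.329 in F, and rose by 2.23 in FSB against F (adjusted p = 0.000369). TNNT1, a slow skeletal troponin, averaged 0.840 FPKM in F_FSB, 0.139 in FSB and 1.72 in F, and fell by 1.23 in FSB against F (0.00318). The 11 pericyte and vascular smooth muscle markers summed to 164 to 257 FPKM in F_FSB, 284 to 323 in FSB and 147 to 213 in F, with 7 of the 11 at 1 FPKM or more in at least 1 group. MCAM, a surface glycoprotein of that list, rose by 2.67 in FSB against F (adjusted p = 0.0028), NOTCH3 rose by 0.91 (0.0316) and CSPG4 (NG2) fell by 2.19 (0.000792). The 7 fibroblast markers, all above 1 FPKM in a group, summed to 7656 to 9574 FPKM in F_FSB, 2143 to 2973 in FSB and 8618 to 9750 in F, opposite to TAGLN and CNN1. Of the 7, 6 were lower in FSB than in F, against 13.4% of all genes. COL3A1 did not pass (0.07, adjusted p = 0.82) and averaged 1377 FPKM in F_FSB, 1276 in FSB and 1183 in F. Endothelial markers (3 of 6 at 1 FPKM or more) summed to 1.53 to 5.40 FPKM in F_FSB, 5.47 to 6.12 in FSB and 2.87 to 6.01 in F. Of the 3 tested, CDH5 and TIE1 rose by 1.95 (adjusted p = 5.82e-05) and 1.10 (0.00108) in FSB against F, and TEK fell by 1.92 (0.00132). CDH5 averaged 0.208 FPKM in F_FSB, 3.42 in FSB and 0.143 in F. Epithelial markers (4 of 6) summed to 83.1 to 192.5 FPKM in F_FSB, 109 to 215 in FSB and 37.0 to 128 in F, and CDH1, a defining epithelial gene, averaged under 0.03 FPKM in every group. The epithelial markers KRT8 and CLDN6 rose by 1.73 (adjusted p = 0.0334) and 1.70 (0.00161) in FSB against F. CLDN6 averaged 0.143 FPKM in F_FSB, 2.88 in FSB and 0.143 in F. Crest and ectomesenchyme markers summed to 289.6 to 414 FPKM in F_FSB, 457 to 539 in FSB and 317 to 352 in F. They did not move as one. Of the 6 tested, 3 rose in FSB against F, 1 fell and 2 did not pass, where 28.5% of all genes rose and 13.4% fell. The part of any of these cell types in the contractile gene differences was not tested.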

How the data were processed

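Total RNA of 9 cultures was sequenced after strand-specific library preparation, per the labels' protocols. The authors deposited 1 FPKM table per library, per the file headers, made with TopHat2 2.0.12 and Cufflinks 2.1.1 on GRCh37 per the submitters' processing notes. The sources used here do not state whether the counting used strand, so members that overlap another locus (12 of 43) are uncertain. FPKM are scaled to each library's own mapped fragments and carry no counts, so no counting interval is given.

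Loci with a status other than OK in any library (95) were left out, and a locus was tested where 3 or more libraries reached 1 FPKM (13216 loci). A single limma fit (3.58.1, R 4.3.3) to log2(FPKM + 1) held all 9 libraries and modelled the trend of variance with level. Tests were two-sided, with Benjamini-Hochberg adjustment over all genes tested. Log2 changes on this scale understate the change of low genes. Tables and figures were made with pandas 2.3.3 and matplotlib 3.10.9 under Python 3.11.15.

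The members, the other gene lists and the classes were chosen with earlier results of these data known. All members are named. Members past the test by 1 or more on the log2 scale with a group mean of 5 FPKM or more, and the muscle-type member of each family, are given library by library, and the others by means. Of the other lists, up to 3 called genes with the smallest adjusted p per comparison are named. Some genes that this rule takes are not reported here. Alternatives were another pseudocount (0.1), no filter, 2 rescalings, a fit of 2 groups, a replicate block and leaving out each library.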

Additional observations from a re-analysis of the deposited data

How the results depend on the processing

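No called member changed direction under any of 15 alternatives. All 15 kept 14 of the 21 calls between FSB and F (LMOD1, CNN1, TAGLN, CSRP1, MYL9, TPM2, MYH9, FLNC, MYH10, MYL12A, ACTN4, SRF, TLN1 and SYNPO2) and 9 of the 17 between F_FSB and FSB (LMOD1, CNN1, FLNC, TAGLN, CSRP1, MYH10, ACTN4, TPM2 and SYNPO2). With median-ratio scaling, 13 members were higher in FSB than in F and 8 were lower in F_FSB than in FSB, against 20 and 15 as deposited; of all genes, 18.3% and 19.1% were. Leaving out 1 library at a time gave 15 to 25 members higher in FSB than in F and 10 to 15 lower in F_FSB than in FSB. It gave 1 to 2 members higher in F_FSB than in FSB, with CSRP2 lost without FSB replicate 1, FSB replicate 2 or F_FSB replicate 2, and without F_FSB replicate 1 CSRP2 was lost while ACTA2 passed. It gave 0 to 1 higher in F_FSB than in F, with CSRP2 gained without F replicate 1. The cause was not tested. Deviations from the group means correlated little between same-numbered libraries (-0.136 to 0.292, with several below 0), so the numbers were not taken as pairs. With the replicate number as a block, 20 members were higher in FSB than in F (ACTG2 gained, VCL lost) and 13 were lower in F_FSB than in FSB (MYH9 gained; MYL12A, MKL1 and FLNA lost). Depth is known only roughly, which limits values of low members such as MYH11, MYOCD, SYNPO2 and TAGLN3.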

Other observations

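The following values were picked out after they were seen. MYOCD, myocardin, was at 1.92 FPKM in F_FSB replicate 1 and at 0.709 FPKM in F replicate 1, and at 0.110 FPKM or less in the other 7 libraries. The same pair of libraries held the highest TPM1 values (1036 and 770 FPKM). In F_FSB replicate 1, ACTA2 was at 29.5 FPKM and ACTG2 at 107 FPKM, whereas in F_FSB replicates 2 and 3 ACTA2 was at 123 and 208 FPKM and ACTG2 at 48.0 and 31.3 FPKM. In FSB replicate 3, LMOD1 was at 73.9 FPKM, above the 30.4 and 30.1 FPKM of the other FSB libraries, while ACTG2 was at 32.5 FPKM, below their 110.5 and 143 FPKM. LMOD1, CNN1 and TAGLN, known as smooth muscle genes, averaged 44.8, 32.7 and 717 FPKM in FSB, the medium that contains the inhibitor of TGF-β receptors. In F they averaged 0.850, 7.34 and 191 FPKM. Not all muscle-type members went this way. Of the 10 tested, 5 were higher in FSB than in F, against 28.5% of all genes. SYNPO2 was lower, and ACTA2, ACTG2, SMTN and MYH11 did not pass.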
